A study of Mus musculus with 9 samples.

Results

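Palm oil and olive oil were compared as the fat of a high-fat diet in the mucosa of the mouse small intestine, segment by segment. The series measured RNA in male C57BL/6J mice, an inbred strain, that were 9 weeks old at the start and had eaten their diet for 2 weeks. HF-PO is the palm oil diet, with a P/S value of 1.0 in the labels, HF-OO the olive oil diet, with 4.6, and HF-SO the safflower oil diet, with the highest P/S value. Each small intestine was cut into 3 equal parts, called SI1 (next to the stomach), SI2 and SI3 (distal), and for each part the RNA of a diet's 6 mice went into 1 pool. The comparison used 6 of the 9 arrays, the 3 of HF-PO against the 3 of HF-OO, matched by segment, and the HF-SO arrays stand beside them as a further diet. All groups are C57BL/6J mice on high-fat diets, so none of these arrays holds a low-fat control.

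There is 1 pooled array for each diet and segment, and SI1, SI2 and SI3 of a diet are parts of the same animals. The segments are therefore not independent replicates, no test or p-value is possible for a diet, and a value seen in all 3 segments may belong to 1 pool of mice. Values are the authors' MAS5 signals, and differences are HF-PO minus HF-OO of log2(signal + 16), which understates the change of dim genes. A gene was called apart in a segment at 1.5-fold, a log2 difference of 0.585. Of 18193 genes on the array, 10977 were bright enough to be analysed, with a mean log2 signal not below the median probe set. In bulk mucosa, fewer cells of a type and less RNA per cell cannot be told apart.

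The enterocyte, the absorptive cell of the gut, takes up fatty acids and monoacylglycerol from digested fat, rebuilds them into triglyceride and exports them in chylomicrons. Fatty acids also serve as ligands for PPAR alpha, a nuclear receptor that switches on genes of mitochondrial and peroxisomal fat oxidation. Palm oil is rich in palmitate, a saturated fatty acid, and olive oil in oleate, a monounsaturated one. Markers of the enterocyte were bright on all 6 arrays, with Fabp2, the intestinal fatty acid binding protein, between 34915 and 49757.

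Between palm oil and olive oil, 14 genes were at least 1.5-fold apart in the same direction in all 3 segments (0.128%). In HF-PO, 6 were higher (0.0547% of the genes analysed) and 8 were lower (0.0729%). The 6 higher genes were Scd1, H2-Q5, Gkn2, Ccl5, H2-Q10 and Acaa1b. H2-Q5 and Gkn2 passed the filter on dim signals, a mean log2 of 6.80, only through the palm oil arrays, since their means over the other 6 arrays were 6.77 and 6.39. The other 12 genes passed it without the diet in which they were higher. The 8 lower genes were Bco1, Fkbp5, Ciart, Serpinb5, Lrch4, Rad54l2, Igkv4-72 and Greb1. The higher genes include enzymes of fat metabolism, a T cell chemokine and members of the class I histocompatibility family. The lower ones include an enzyme of carotenoid metabolism, a clock component and a chaperone that binds the glucocorticoid receptor. Promoters of 9 of the 14 were in the RefSeq table used, and those of Scd1, H2-Q5, Ccl5, Rad54l2 and Igkv4-72 were not. The promoters of Bco1 and Ciart are shown because Bco1 had the largest mean difference and Ciart held 3 copies of 1 motif. Each runs from 250 bases before to 50 after the start of transcription in GRCm38.p6, 5′ to 3′ on the gene's own strand.
Bco1 promoter, chr8:117095615-117095914, plus strand, capitals marking the core of a PPAR response element: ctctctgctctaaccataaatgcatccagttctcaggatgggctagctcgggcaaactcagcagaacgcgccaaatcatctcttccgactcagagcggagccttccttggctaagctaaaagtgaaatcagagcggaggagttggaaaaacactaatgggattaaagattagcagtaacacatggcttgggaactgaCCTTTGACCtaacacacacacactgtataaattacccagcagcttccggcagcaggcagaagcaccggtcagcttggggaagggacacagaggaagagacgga
Ciart promoter, chr3:95882179-95882478, minus strand, capitals marking E-boxes: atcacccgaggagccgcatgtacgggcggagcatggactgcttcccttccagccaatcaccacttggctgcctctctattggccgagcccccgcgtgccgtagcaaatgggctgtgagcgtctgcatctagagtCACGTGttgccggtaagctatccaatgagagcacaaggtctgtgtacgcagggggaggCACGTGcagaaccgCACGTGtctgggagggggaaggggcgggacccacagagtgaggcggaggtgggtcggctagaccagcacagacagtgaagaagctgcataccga

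The motif in the Bco1 window is CCTTTGACC, the other strand of GGTCANAGG, which is the core of a pair of half-sites spaced by 1 base. It starts at position -53 from the start of transcription. The E-box CACGTG, the element that the clock proteins CLOCK and BMAL1 are known to bind, occurs 3 times in the Ciart window, starting at -116, -58 and -44. Among the 9 promoters, the GGTCANAGG core was found on either strand in 2 and the E-box in 2, against 2.02% and 8.09% of all 27025 genes in the table. The second PPRE core was in Serpinb5, at -28, and the second gene with an E-box was Fkbp5, at -169. No promoter of the 9 held the letters TCACNCCAC (a sterol response element), GAAANNGAA (an interferon-stimulated response element) or TTATGTAA (a D-box), which 1.44%, 9.76% and 1.11% of all genes held. These matches describe letters in these windows and not binding. Genes without a promoter in the table, Scd1 and Ccl5 among them, were not scanned for any of these motifs.

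**Figure D1:**
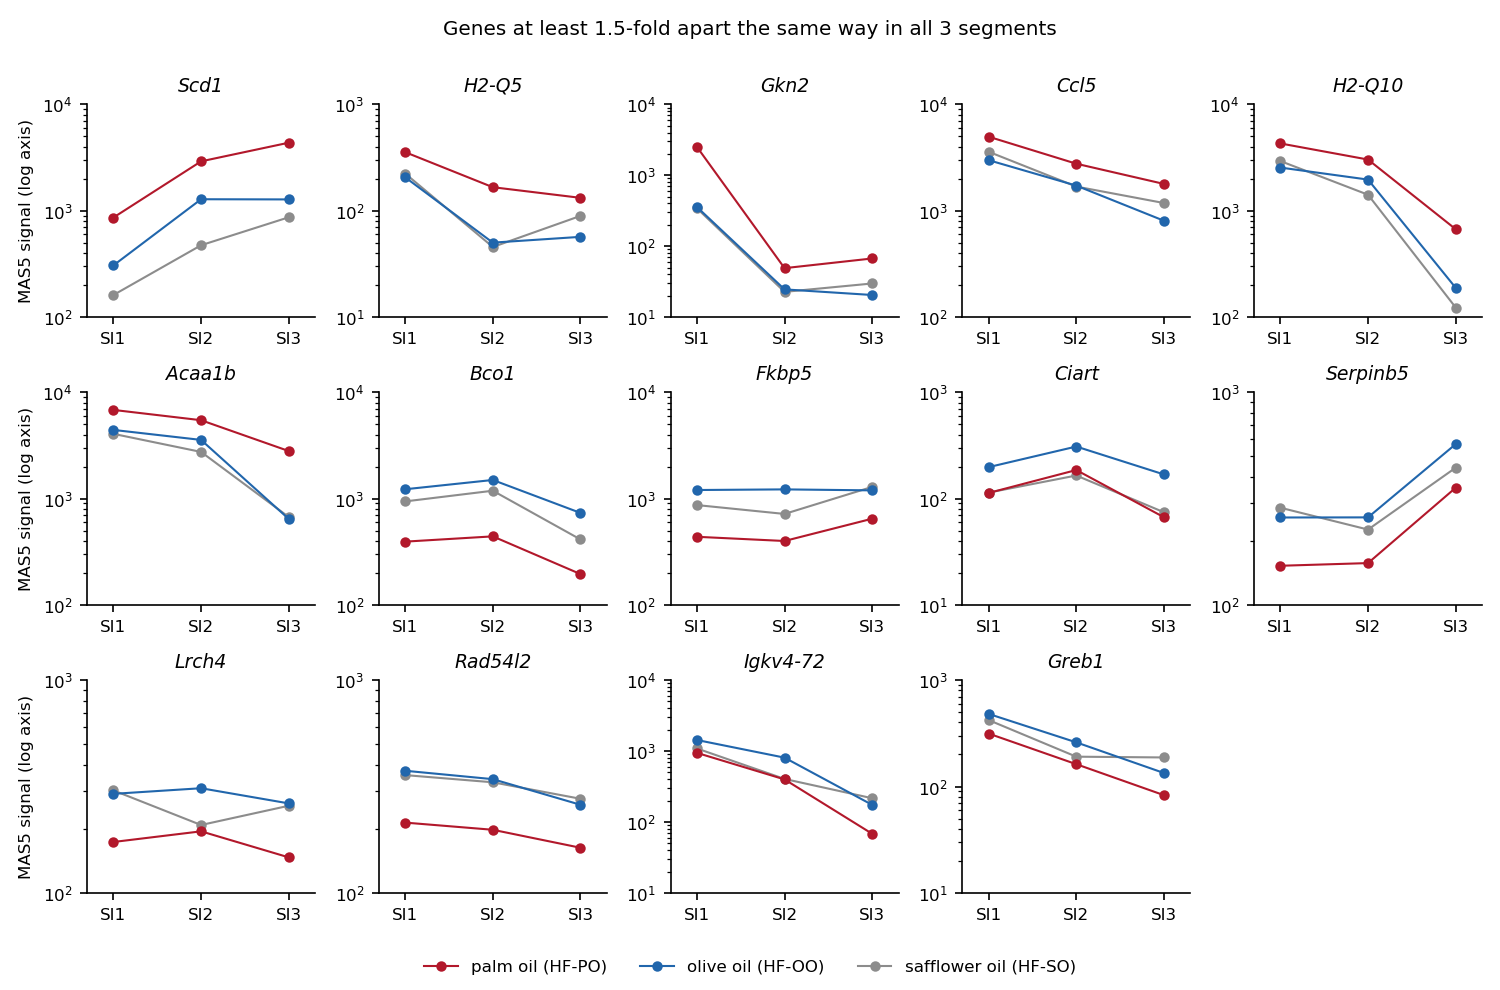
MAS5 signal (log axis) of the 14 genes in the 3 segments, 1 point per pooled array, with palm oil in red, olive oil in blue and safflower oil in grey. In each panel the red points lie above or below the blue ones in all 3 segments, by which the genes were chosen, and Scd1 and Bco1 keep a similar gap from SI1 to SI3.

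Most differences between the diets were not shared between segments. HF-PO was at least 1.5-fold higher for 254 genes in SI1 (2.31%), 194 in SI2 (1.77%) and 330 in SI3 (3.01%). It was at least 1.5-fold lower for 214 genes in SI1 (1.95%), 360 in SI2 (3.28%) and 375 in SI3 (3.42%). Of the 1438 genes apart in any segment (13.1%), 1182 were apart in exactly 1 (10.8%) and 121 were apart in opposite directions in different segments (1.1%). Across the 10977 genes the differences of SI1 and SI2 correlated with Pearson r 0.06 (Spearman rho 0.08), those of SI1 and SI3 with r 0.01 (rho -0.002) and those of SI2 and SI3 with r 0.10 (rho 0.12). These correlations are across genes, which are not independent replicates, and the points of a diet share their mice. The other pairs of diets gave similar numbers by the same rule: 7 genes higher (0.0638%) and 7 lower (0.0638%) in all 3 segments for HF-PO against HF-SO, and 2 higher (0.0182%) and 7 lower (0.0638%) for HF-SO against HF-OO. The 3 comparisons share arrays in pairs.

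**Figure D2:**
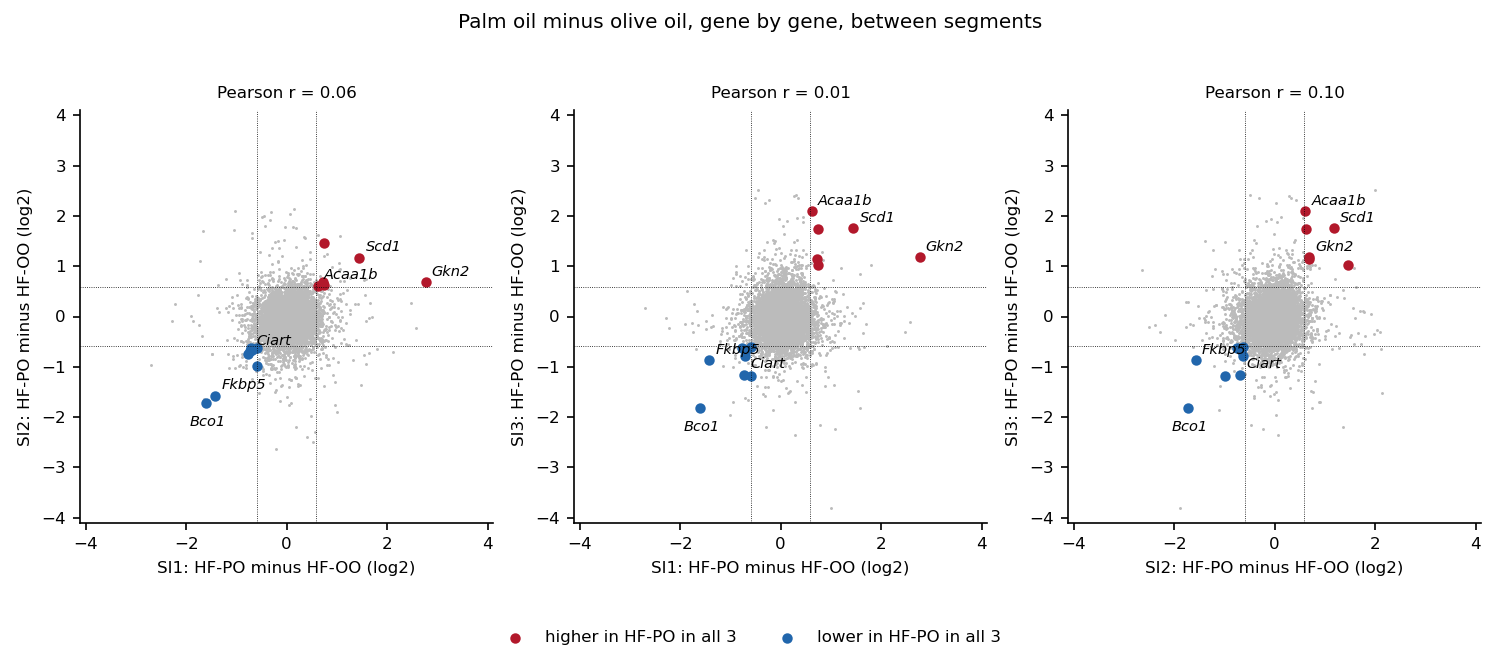
HF-PO minus HF-OO (log2) in one segment against another for the 10977 genes analysed, in grey, with the 6 genes higher in all 3 segments in red and the 8 lower in blue; dotted lines mark 1.5-fold. The grey cloud is centred near 0 without a slope, with Pearson r of 0.06, 0.01 and 0.10, and the coloured genes lie in the corners by the rule that chose them.

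Bco1, the beta-carotene oxygenase, which splits beta-carotene into retinal, was the gene with the largest mean difference. Its signal was 394 in SI1, 442 in SI2 and 195 in SI3 with palm oil, and 1224, 1497 and 734 with olive oil. With safflower oil it was 941, 1186 and 413. The lowest olive oil value, in SI3, lay above the highest palm oil value. Bco1 was chosen for the distance between these same arrays, so this describes them and is no test. HF-PO was 3.02-fold lower in SI1, 3.30-fold lower in SI2 and 3.55-fold lower in SI3, a mean log2 difference of -1.72 ± 0.12 (SD over 3 segments of 1 pool per diet). On the log2 scale HF-SO was nearer to HF-OO than to HF-PO in all 3 segments. The gene lies on chromosome 8 at 117095851 to 117133720.

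Other genes of vitamin A and carotenoid handling, a list drawn up after Bco1 was seen, did not share this. Of its 17 genes analysed, Bco1 alone was past 1.5-fold in all 3 segments, 2 were higher by any amount in all 3 (13.3% over all genes) and 1 was lower (15.2%). Isx, the intestinal repressor of Bco1 and Scarb1, differed by -0.14, -0.07 and 0.12 in SI1, SI2 and SI3, and Scarb1, a carotenoid receptor, by -0.18, 0.20 and -0.03. Rbp2, which carries retinol in the enterocyte, differed by -0.12 and -0.01 in SI1 and SI2 but by 1.25 in SI3, where it stood at 22810 with palm oil and 9566 with olive oil. The enterocyte markers had medians of -0.15, -0.03 and 0.06 over 7 genes, and their part in the Bco1 result was not tested.

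Scd1, the stearoyl-CoA desaturase that makes oleate from stearate, was higher with palm oil throughout. Its signal in SI1, SI2 and SI3 was 862, 2909.9 and 4356 with palm oil, 306, 1282 and 1277 with olive oil, and 161, 474 and 868 with safflower oil. The order palm oil, olive oil, safflower oil was the same in every segment, and it is the reverse of the order of the P/S values. HF-PO was 2.73-, 2.25- and 3.38-fold above HF-OO, a mean log2 difference of 1.46 ± 0.29 (SD over 3 segments). A second probe set of Scd1, which reads the same gene, differed by 1.35, 1.04 and 1.19.

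Other genes of fat synthesis lay on both sides of 0. Of 16 genes of fatty acid synthesis, elongation and desaturation that were analysed, 4 were higher by any amount in all 3 segments (13.3% of all genes) and 3 were lower (15.2%), with medians of 0.08, -0.12 and -0.04. Me1, malic enzyme, which supplies NADPH, differed by 0.82, 0.56 and 1.29, with signals of 4015, 3568 and 1004 under palm oil and 2266, 2421 and 401 under olive oil. Fasn, fatty acid synthase, differed by 0.06, -0.49 and -0.29, and Elovl6, which elongates palmitate, by -0.12, -0.29 and -0.14. Scd2, the related desaturase, differed by 0.08, -0.13 and 0.17. In cholesterol synthesis none of 21 genes was past 1.5-fold in any segment, beside 13.1% of all genes apart in at least 1 segment.

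Acaa1b, a peroxisomal thiolase of fat oxidation, was higher with palm oil in all 3 segments and most so distally. Its signal was 6817, 5454 and 2799 with palm oil and 4422, 3561 and 644 with olive oil. With safflower oil it was 4061, 2745 and 671, near the olive oil value in SI3. The differences were 1.54-fold in SI1, 1.53-fold in SI2 and 4.27-fold in SI3, so that SI1 and SI2 lay just inside the threshold. Acaa1a, a close relative whose transcript the probes of Acaa1b could share, differed by 0.22, -0.17 and 0.50.

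Genes of fat oxidation were mostly slightly higher with palm oil. Of 28 genes of mitochondrial and peroxisomal fatty acid oxidation, 21 were higher by any amount in all 3 segments and 0 were lower, beside 13.3% and 15.2% of all genes. Their median difference was 0.15 in SI1, 0.11 in SI2 and 0.27 in SI3, against 0.01, -0.01 and -0.02 over all genes, and Acaa1b was the only one past 1.5-fold in all 3. Slc25a20, the carnitine-acylcarnitine carrier of mitochondria, stood at 4171, 4345 and 5326 with palm oil and 3073, 3640 and 3420 with olive oil, differences of 0.44, 0.25 and 0.64. Cpt1a, the gatekeeping transferase of the same pathway, differed by 0.23, -0.002 and 0.03. Members of a pathway are not independent, and this list overlaps the next in Slc25a20.

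Inducible targets of PPAR alpha and ketogenesis genes showed larger differences. Of 17 genes, 11 were higher by any amount in all 3 segments (13.3% of all genes) and 0 were lower (15.2%), with medians of 0.31, 0.17 and 0.43. In SI1, 2 of them were at least 1.5-fold higher (2.31% of all genes), in SI2 0 (1.77%) and in SI3 7 (3.01%). Acot1, an acyl-CoA thioesterase, stood at 761, 661 and 176 with palm oil and 320, 452 and 82.1 with olive oil. Angptl4, an inhibitor of lipoprotein lipase, stood at 760, 760 and 1127 with palm oil and 543, 528 and 649 with olive oil, differences of 0.47, 0.51 and 0.78. In both genes the palm oil array was the higher in each segment.

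Some of these targets differed mainly in SI3. Pdk4, a kinase that restrains pyruvate oxidation, was 664 with palm oil and 159 with olive oil there, a difference of 1.96, and differed by 0.32 in SI1 and 0.56 in SI2. Retsat, a retinol saturase, differed by 0.33, 0.41 and 1.53. Ppara itself, the receptor, differed by 0.08, -0.09 and 0.02. Genes of triglyceride synthesis and chylomicron assembly, 21 in all, had medians of -0.06, 0.00 and 0.22, and lipid droplet genes, 13 in all, of -0.02, 0.03 and 0.27. Whether SI3 differs from the other segments could not be tested with 1 array per diet.

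**Figure D3:**
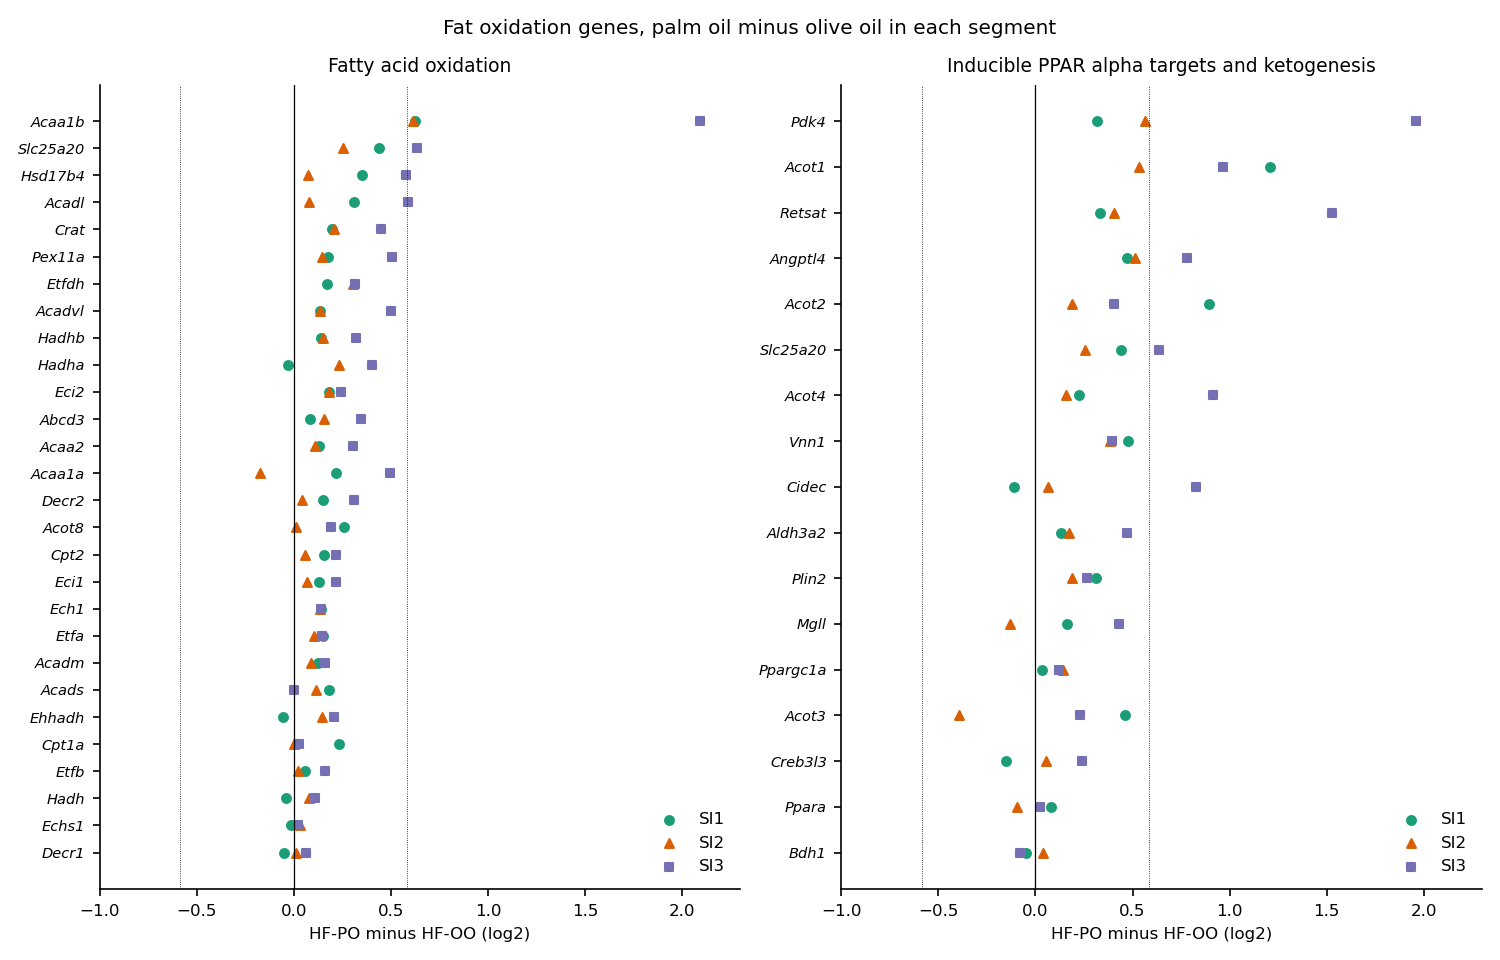
HF-PO minus HF-OO (log2) of each analysed gene of fatty acid oxidation (left) and of inducible PPAR alpha targets and ketogenesis (right), with 1 mark per segment (circle SI1, triangle SI2, square SI3) and dotted lines at 1.5-fold. Most marks lie right of 0, with medians of 0.15, 0.11 and 0.27 on the left and 0.31, 0.17 and 0.43 on the right, and the SI3 squares of Acaa1b, Pdk4 and Retsat lie farthest out.

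Among genes of sterol absorption and efflux, Abca1 and Mylip had the largest mean differences over the segments, both lower with palm oil. Of 11 genes of sterol absorption and efflux, 4 were lower by any amount in all 3 segments (15.2% of all genes) and 0 were higher (13.3%), with medians of -0.17, -0.08 and -0.09. With the median over a gene's probe sets, 2 of 10 were lower. Abca1, which moves cholesterol out of the cell, stood at 949.5, 3199.7 and 3478 with palm oil and 2691, 5347 and 4158 with olive oil, differences of -1.49, -0.74 and -0.26. With safflower oil Abca1 was 940.4, 3692 and 3164, so the olive oil array was the highest in each segment. Mylip, a ligase that marks the LDL receptor for degradation, differed by -0.75, -0.40 and -0.56. Cyp27a1, a sterol hydroxylase, which is not on that list, stood at 1289, 1855 and 1118 with palm oil and 2386, 3117 and 1540 with olive oil. Cyp27a1 is named because it passed 1.3-fold in all 3 segments, a fold chosen after the data were seen that took in 27 higher genes (0.246%) and 35 lower (0.319%).

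Fkbp5, a chaperone that binds the glucocorticoid receptor and is induced by it, was lower with palm oil. Its signal was 438, 400 and 648 in SI1, SI2 and SI3 with palm oil, and 1204, 1221 and 1195 with olive oil. Safflower oil gave 869.5, 718 and 1289, on the log2 scale nearer to olive oil than to palm oil in each segment. In SI2 this was narrow, with HF-SO -0.75 from HF-OO and 0.82 from HF-PO. HF-PO was 2.69-, 2.98- and 1.82-fold lower than HF-OO, and a second probe set differed by -1.48, -1.30 and -0.82. Of 11 glucocorticoid-responsive genes analysed, 3 were lower by any amount in all 3 segments (15.2% of all genes) and 3 were higher (13.3%). The lower ones were Fkbp5, Mt1 and Mt2, and the higher ones Cdkn1a, Dusp1 and Nr3c1, the receptor itself.

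The metallothioneins Mt1 and Mt2, which bind zinc and also respond to metals, differed by -0.80, -1.03 and -0.18 and by -0.90, -0.48 and -0.29. Zbtb16, a transcription factor induced by glucocorticoids, lay below the filter on dim signals and stood at 47.4, 44.9 and 37.6 with palm oil against 211, 117 and 90.9 with olive oil. Tsc22d3, another such target, did not share this, with differences of 0.05, -0.16 and 0.50. Sgk1, a kinase induced by the same receptor, differed by -0.37, -0.23 and 0.35.

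Ciart, a repressor in the circadian clock, was lower with palm oil than with olive oil, at 113, 186 and 66.8 against 198, 309 and 169. Safflower oil gave 114, 165 and 74.4, and Ciart was the 1 gene of the 14 for which HF-SO lay nearer to HF-PO in all 3 segments. The olive oil array was thus the highest of the 3 diets in each segment. Of 17 clock genes analysed, 7 were lower with palm oil in all 3 segments (15.2% over all genes) and 3 were higher (13.3%). The lower ones were Per2, Per3, Nr1d1, Nr1d2, Dbp, Tef and Ciart, repressors and output factors of the clock, and the higher ones were Arntl and Npas2, its activators, and Nfil3.

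Dbp, an output factor, stood at 2274, 1988 and 644 with palm oil, 3299.6, 2957 and 777 with olive oil and 1709.5, 1744 and 480.2 with safflower oil. Per2, a core repressor, stood at 621, 574 and 478 with palm oil, 842, 775 and 676 with olive oil and 492, 598 and 435 with safflower oil. Olive oil was again the highest diet in each segment for both genes on the probe sets used. A second probe set of Per2 differed by -0.37, -0.65 and 0.16, with palm oil the highest in SI3. A further one differed by -0.29, -0.50 and -0.37. Arntl, which encodes BMAL1, differed in the other direction, by 0.42, 0.51 and 0.13, and Nfil3, a repressor that competes with DBP, by 0.36, 0.80 and 1.03. The time of day at which the tissue was taken is not given in the labels used here, and its part in the result was not tested.

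**Figure D4:**
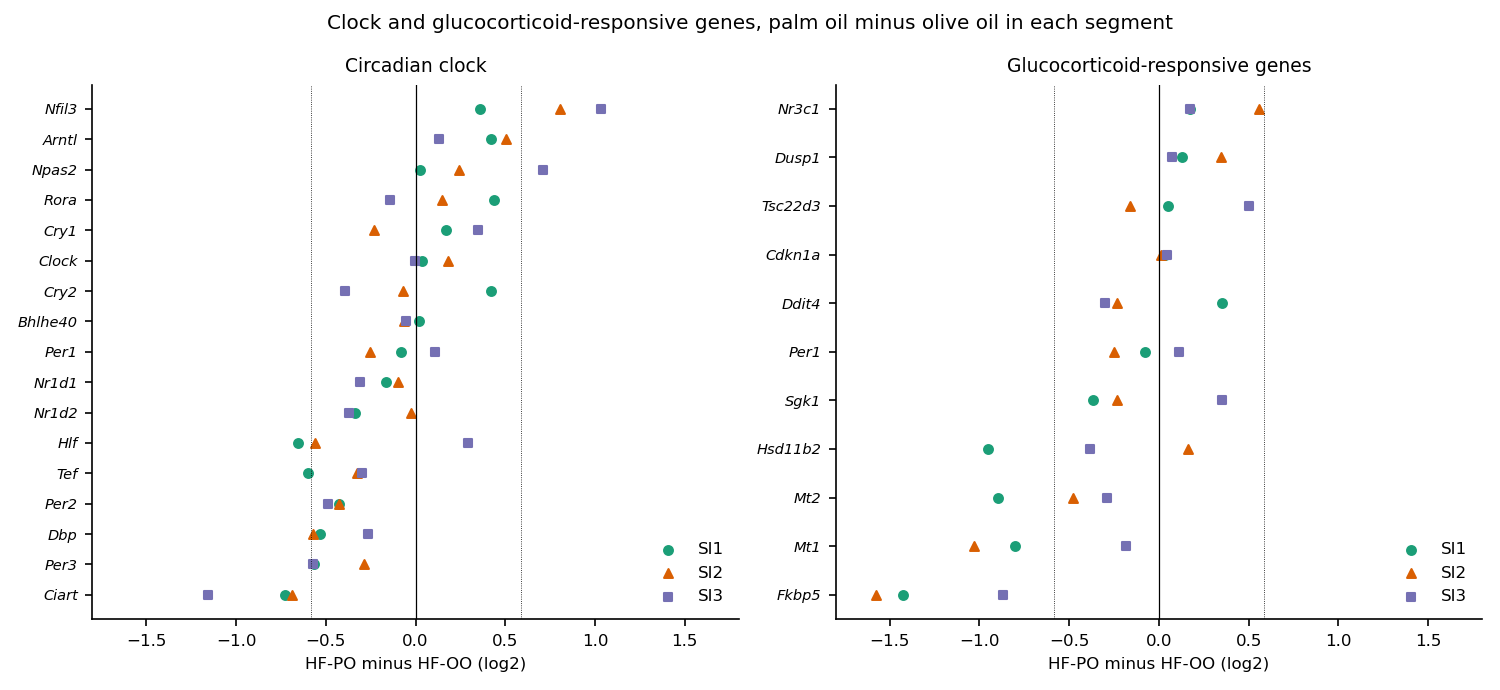
HF-PO minus HF-OO (log2) of the analysed clock genes (left) and glucocorticoid-responsive genes (right), with 1 mark per segment (circle SI1, triangle SI2, square SI3) and dotted lines at 1.5-fold. On the left, 7 genes from Ciart to Nr1d1 have all 3 marks below 0 and Nfil3, Arntl and Npas2 have all 3 above, while on the right Fkbp5 lies past the lower line in every segment.

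Ccl5, a chemokine made by T cells, was higher with palm oil. It stood at 4961, 2765 and 1785 with palm oil, 2986, 1721 and 805 with olive oil and 3581.5, 1686 and 1181 with safflower oil. The palm oil array was the highest diet in each segment, by 1.66-, 1.60- and 2.19-fold over olive oil. Markers of T and intraepithelial lymphocytes, a list that includes Ccl5, were mostly higher too. Of 11 markers, 7 were higher by any amount in all 3 segments (13.3% of all genes) and 0 were lower (15.2%), with medians of 0.25, 0.35 and 0.50. Their summed signal was 21252, 13114 and 8226 with palm oil against 16899, 10259.8 and 5645 with olive oil, and their part in the result was not tested.

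Cd3d, a chain of the T cell receptor complex, differed by 0.28, 0.70 and 0.98, and Gzma, a granzyme of cytotoxic lymphocytes, by 0.27, 0.35 and 0.46. Cd3e, another chain of that complex, differed by 0.28, 0.90 and -1.71, the last from dim signals of 51.8 and 205. B and plasma cell markers were higher by any amount in all 3 segments for 4 of 9 (13.3% of all genes), with medians of 0.03, 0.09 and 0.21. Summed, their signal was 24356, 15555 and 11156 with palm oil against 23812, 17100 and 9561 with olive oil, so palm oil was the lower in SI2.

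H2-Q10, a secreted class I histocompatibility molecule, stood at 4288, 3025 and 670.3 with palm oil, 2544, 1961 and 189 with olive oil and 2929.6, 1413 and 123 with safflower oil. H2-Q5, annotated as a transcribed pseudogene of the same cluster on chromosome 17, stood at 355, 166 and 132 against 206, 50.1 and 56.8. Both were higher with palm oil in each segment, H2-Q10 by 1.68-, 1.54- and 3.36-fold. Genes of the H2-Q cluster are near-identical, so a probe set may read more than its own gene. H2-K1, a classical class I gene, which displays peptides to T cells, did not share the difference, at -0.09, 0.03 and 0.13. B2m, the light chain of class I, differed by -0.19, -0.01 and 0.09. Tap1, the peptide transporter, differed by 0.31, 0.48 and 0.33. Of 13 class I genes analysed, a list drawn up after these 2 were seen, 5 were higher by any amount in all 3 segments (13.3% of all genes) and 0 were lower (15.2%). H2-Q10 and H2-Q5 are among these 5, and their direction was fixed by the rule that chose them, so the shares are no test. The count of 5 became 8 of 13 with quantile normalization and 2 of 11 with the median over a gene's probe sets. Interferon response genes had medians of 0.07, 0.17 and 0.22 over 16 genes.

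Gkn2, gastrokine 2, a product of the stomach's surface cells, had the largest single difference of the 14. It stood at 2515 in SI1 with palm oil and 357 with olive oil, a 6.79-fold difference. In SI2 it was 49 against 24.6 and in SI3 67.1 against 20.5, signals near the floor of the arrays where the added 16 weighs on the fold. Stomach markers moved with it in SI1, where the SI1 palm oil array was the highest of the 3 for Tff2, a mucus peptide (4474 against 374), and Gkn1 (1321 against 258). Of 9 stomach markers, 6 lay below the filter, Tff2 and Gkn1 among them, and Gkn2 and Atp4b passed it only through the palm oil arrays. Tff1, another mucus peptide, differed by 1.14, -0.45 and -0.30, and Atp4b, a subunit of the gastric proton pump, by 1.07, 1.59 and -0.04. The summed signal of these 3, Gkn2 included, was 5572 against 1734.5 in SI1, 834 against 932 in SI2 and 708 against 793 in SI3. The 2 parietal cell genes Atp4a and Atp4b stayed dim in SI1, at 48.6 and 135 with palm oil. Exocrine pancreas markers were also higher in SI1, 10 of 10 by any amount (51.1% of all genes) with a median of 0.38, and had medians of -0.16 and -0.02 in SI2 and SI3. Their summed signal in SI1 was 55038 with palm oil and 42393 with olive oil. The series' design states that pancreas and fat clinging to the gut were taken off and that mucosa was scraped for RNA. The part of these markers in the Gkn2 result was not tested.

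The other 5 lower genes had mean log2 signals from 7.88 (Greb1) to 8.83 (Igkv4-72). These lay below Bco1 and Fkbp5, at 9.39 and 9.70, but above Ciart, the dimmest lower gene, at 7.30. Serpinb5, an epithelial serpin, stood at 153, 157 and 356 with palm oil and 258, 258 and 570.1 with olive oil, and its 3 other probe sets were lower in all 3 segments too but lay below the filter. Lrch4, a leucine-rich repeat protein, stood at 174, 195 and 147 against 292, 310.4 and 263. The other probe set of Lrch4, below the filter, differed by -1.29, 0.23 and -1.46, so it did not share the direction in SI2. Rad54l2, a helicase, differed by -0.77, -0.74 and -0.62, but its other probe set by 0.03, 0.09 and 0.02, so the gene's probe sets disagree. Greb1, known as an oestrogen-induced gene, differed by -0.59, -0.63 and -0.60, and another of its probe sets by -0.72, 0.55 and 0.22. Igkv4-72, an immunoglobulin kappa variable segment, stood at 943, 398 and 68.1 against 1432, 807 and 174. Over the 14 genes, 12 further probe sets of 7 genes exist, of which 6 had the sign of the probe set used in all 3 segments.

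The threshold of 1.5-fold fell within a continuous range. Just inside it, the smallest of the 3 differences was 0.61 for Acaa1b and 0.62 for H2-Q10 on the higher side and -0.59 for both Greb1 and Igkv4-72 on the lower. Just outside it were Ctrl, a pancreatic protease, at 0.58 and Slc6a3, a dopamine transporter, at 0.57. On the lower side Slc17a9, a nucleotide transporter, stood at -0.57 and AW047730, an uncharacterised transcript, at -0.56.

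The safflower oil arrays entered the filter and the choice of probe sets but not the differences by which the 14 genes were chosen. On the log2 scale they lay nearer to olive oil for 12 of 14 in SI1, 10 in SI2 and 11 in SI3. Over all genes the shares were 55.0%, 52.1% and 56.4%. In all 3 segments at once HF-SO was nearer to HF-OO for 8 of 14 genes, 57.1%, against 17.2% of all genes. By direction these were 5 of the 6 higher genes and 3 of the 8 lower ones, Bco1, Fkbp5 and Rad54l2. The 14 genes were chosen for the distance between HF-PO and HF-OO, so these shares describe the arrays and are no test.

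Genes that led single segments were mostly not shared and mostly dim. Among the genes analysed, the largest differences in SI1 were Gkn2 at 2.76 on the higher side and Mbl2, a soluble lectin, at -2.70 on the lower, while Tff2, below the filter, differed by 3.53. In SI2 they were Slc39a13, a zinc transporter, at 2.14 and Orc1, a subunit of the replication origin complex, at -2.64. In SI3 they were Zap70, a T cell kinase, at 2.52 and Car1, a carbonic anhydrase, at -3.81. Other probe sets of Zap70 differed in SI3 by 0.53 and, below the filter, by -1.20. Another probe set of Orc1, below the filter, differed in SI2 by 0.19. Among the 5 largest each way in each segment, 30 entries, 4 had the same sign in all 3 segments and 25 had a signal under 100 in the dimmer of the 2 diets. Cybrd1, a duodenal iron reductase, was 435 with palm oil and 2082.5 with olive oil in SI1 and between 49.5 and 74.3 on the other 4 arrays of the comparison.

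Cell cycle and Paneth cell genes differed in opposite directions at the 2 ends of the intestine. Of 20 cell cycle genes, 17 were higher by any amount with palm oil in SI1 (51.1% of all genes), 7 in SI2 (47.6%) and 1 in SI3 (46.3%), with medians of 0.30, -0.10 and -0.35. Mki67, a marker of dividing cells, stood at 1371 with palm oil and 1007.5 with olive oil in SI1, and at 1569 and 2108 in SI3. Paneth cell genes encode antimicrobial products of the crypt base, and 5 of the 10 listed were analysed. In SI1 5 of 5 were higher by any amount (51.1% of all genes), with a median of 0.26. In SI2 and SI3 5 of 5 were lower, where 47.6% and 46.3% of all genes were higher. Their medians there were -0.15 and -0.42. Of peptide and amino acid handling genes, 6 of 14 were lower by any amount in all 3 segments (15.2% of all genes) and 0 were higher (13.3%). These opposite directions are described and were not tested.

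**Figure D5:**
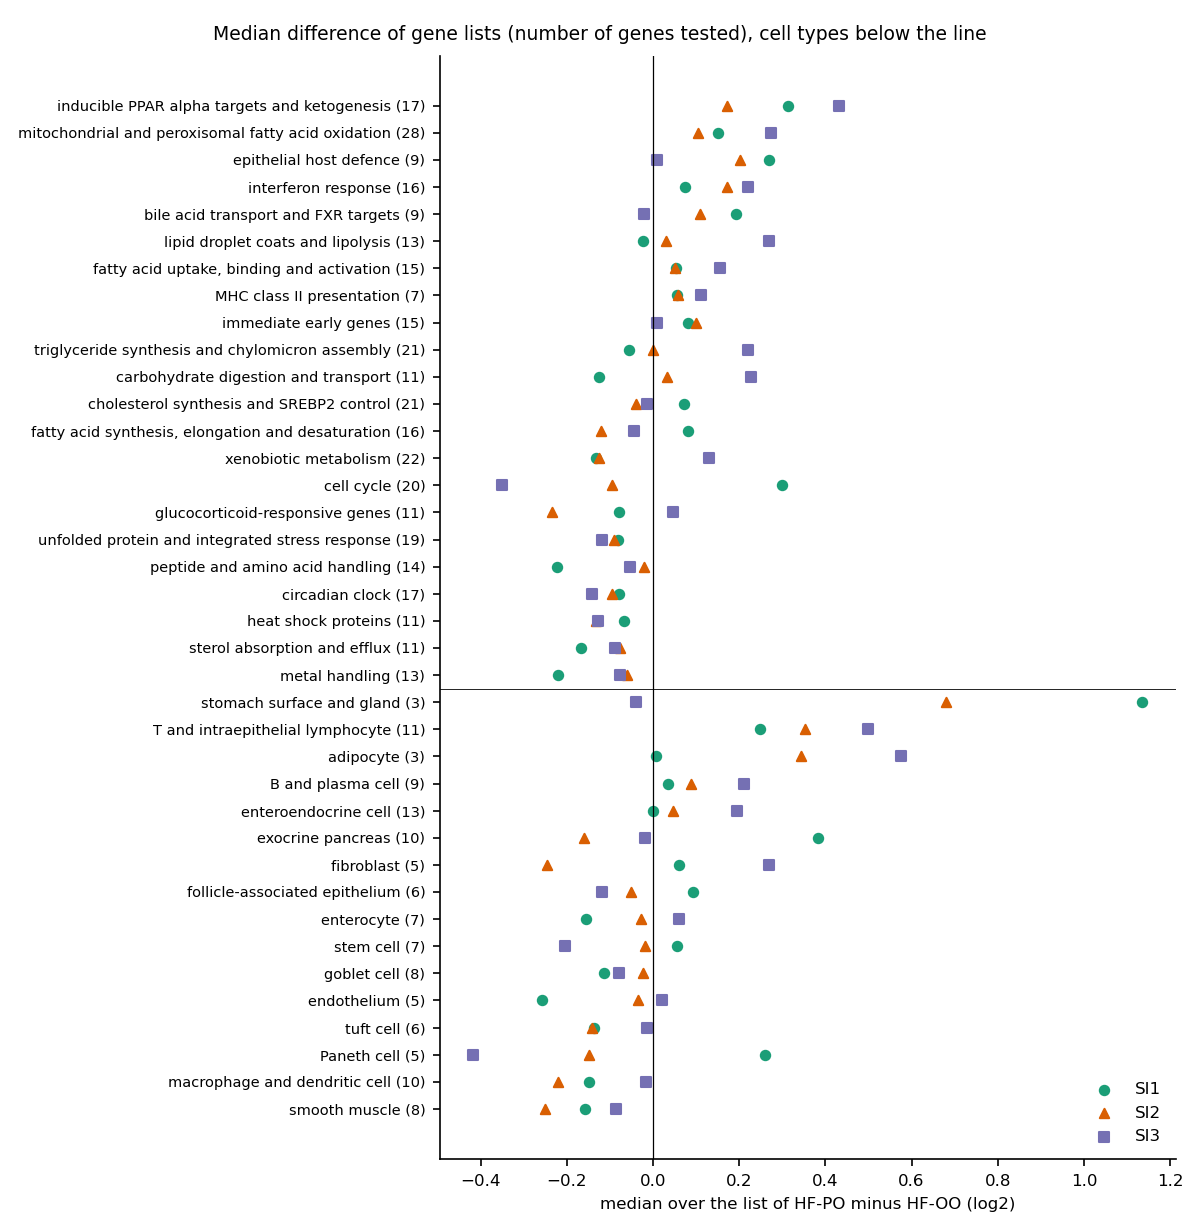
Median over each gene list of HF-PO minus HF-OO (log2), 1 mark per segment (circle SI1, triangle SI2, square SI3), with pathways above the line, cell types below it and the number of genes analysed in brackets. The medians of PPAR alpha targets, fatty acid oxidation and T cell markers lie right of 0 in every segment, and those of cell cycle and Paneth cell genes lie on opposite sides of 0 in SI1 and SI3.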

How the data were processed

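Array values are linear signal intensities, 1 per probe set and array, deposited by the authors and credited to MAS5 in the submitters' processing notes, with no version given in the sources used here. The 2% trimmed mean of each array was 500, so the authors' scaling was kept. The median signal of an array was between 94.4 and 105.5 on the 6 compared, and 3′ to 5′ signal ratios between 1.23 and 1.31 for actin and between 0.789 and 0.871 for Gapdh. Of 45101 probe sets, 64 controls were left out, and 34945 carried 1 gene symbol in the platform annotation, 932 several and 9160 none. The brightest probe set over the 9 arrays stood for a gene. Genes with a mean log2(signal + 16) of at least 6.80, the median over probe sets, were analysed. HF-PO minus HF-OO was taken per segment, and no test was run. Promoters came from a RefSeq table of GRCm38.p6.

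Named are all genes at least 1.5-fold apart the same way in all 3 segments, the 5 largest each way per segment, the 5 widest opposite pairs, the 2 genes just inside and outside the threshold each way and any member of the 43 gene lists. The members and lists were chosen with earlier results of these data known, and 2 more lists were added after the differences were seen. Counting steps were tested on simulated data. Python 3.11.15, numpy 2.4.6, pandas 2.3.3, scipy 1.17.1 and matplotlib 3.10.9 were used. Alternatives covered the pseudocount, the filter, the scaling, the probe set rule, the fold and leaving out a segment.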

Additional observations from a re-analysis of the deposited data

Results flagged for a closer look

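In 5 genes the palm oil array was at least 1.5-fold above the olive oil array in 1 segment and at least 1.5-fold below it in another, with the widest gaps among 121 such genes. With 1 array per diet and segment these differences between segments were not tested. Car1, a carbonic anhydrase, differed by 1.01 in SI1 and -3.81 in SI3, a gap of 4.82 on the log2 scale. Its olive oil signal was 21.0 in SI1, 294 in SI2 and 1292 in SI3, against 58.3, 67.6 and 77.3 with palm oil, and safflower oil gave 1026 in SI3. Slc39a13, a zinc transporter, differed by 2.14 in SI2 and -1.53 in SI3, a gap of 3.67, with 236 against 41.3 and 165 against 506. Slfn9 differed by 1.36 in SI2 and -2.20 in SI3, a gap of 3.57, with 104 against 30.7 and 54.9 against 310.4. Another probe set of Slfn9, below the filter, differed by 0.82 and 0.39 there, without the reversal. Orc1 differed by -2.64 in SI2 and 0.92 in SI3, a gap of 3.57, with 24.0 against 234 and 216 against 107. Another probe set of Orc1, below the filter, had the opposite signs, 0.19 and -0.69. Mark1, a kinase of microtubule-associated proteins, differed by 1.58 in SI1 and -1.83 in SI3, a gap of 3.40, with 99.9 against 22.8 and 30.0 against 147. Its other probe sets, all below the filter, were lower with palm oil in SI1 and ranged from -1.92 to 0.51 in SI3. In each of the 5 genes, 1 of the diets had a signal under 100 in a segment that made the gap.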

How the results depend on the processing

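No paired analysis was possible because there is 1 array per diet and segment and the labels carry no replicate numbers. Scd1, Ccl5, H2-Q10, Bco1 and Fkbp5 were past 1.5-fold in all 3 segments in 7 of 7 settings that changed the pseudocount, filter, scaling or probe set rule. Acaa1b and Igkv4-72 were so in 6, H2-Q5, Ciart and Serpinb5 in 5, Gkn2, Lrch4 and Rad54l2 in 4 and Greb1 in 2. The 6 higher genes in all 3 segments became 46 with no filter, 1 (Scd1) at 2-fold and 27 at 1.3-fold, a fold chosen after seeing the data. Without SI1, SI2 or SI3 they became 23, 20 and 25. The 8 lower genes became 3 with a pseudocount of 64, 95 with no filter, 5 with a mean log2 of at least 8, 1 (Bco1) at 2-fold and 35 at 1.3-fold, and 44, 28 and 42 without SI1, SI2 or SI3. Per segment, a pseudocount of 64 gave 141, 111 and 210 higher genes and 111, 204 and 192 lower ones in SI1, SI2 and SI3, and no filter gave 1396, 1351 and 1545 higher and 1660, 1847 and 2001 lower. A mean log2 of at least 8 gave 92, 62 and 160 higher and 58, 98 and 102 lower, and a fold of 2 gave 56, 42 and 74 higher and 36, 73 and 53 lower. A higher fold, a higher filter and a larger pseudocount lower such counts by construction. With the median over probe sets, Rad54l2 had a mean difference of -0.33 in place of -0.71. Of the list medians, 791 moved by less than their spread and 64 by more, and those of fatty acid oxidation, PPAR alpha targets, the clock, the cell cycle and T cell markers kept their sign in 21 of 21 comparisons each. Signals under 100 limit the dim genes.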
